A study of Mus musculus with 20 samples.

Results

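Fabp7, Bex1, Nes, Gap43 and Ncam1 are best known from the developing nervous system, and their mRNA was followed here in primary fibroblasts grown from mouse embryos. They are 5 of the 12393 genes named by a single symbol on these 1-colour Affymetrix arrays. The 5 genes were chosen from an earlier reading of the same arrays, with their embryo means and genotype differences in view, so those values are given below as a description. Counts of members called are printed only beside the share of all genes called, and nothing is read from them. All 12 probe sets that carry 1 of the 5 symbols were used, and no threshold on level or change was applied to pick them.

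There were 10 cultures of E2F4 null cells, 2 from each of 5 embryos, and 10 cultures of wild type cells, 3, 3 and 4 from 3 embryos, with 1 array per culture. The cells were primary embryonic fibroblasts taken at 13.5 days post coitum, a mixed population of connective tissue cells that can carry other cell types of the embryo. E2F4 is a transcription factor that represses cell cycle genes in resting cells as a partner of pocket proteins, and the design asks how its loss alters expression. The first number of each culture's name was read as the embryo, and the embryo was taken as the replicate. The labels name no strain, litter, passage, null allele or other agent.

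Fabp7 encodes the brain fatty acid binding protein, a lipid carrier of radial glia, the stem cells of the developing brain, and of Schwann cell precursors. Nes encodes nestin, an intermediate filament protein of neural progenitors that is also made by myoblasts, pericytes and young endothelium. Bex1 encodes a small adaptor protein linked to neurotrophin receptor signalling. Gap43 encodes a membrane phosphoprotein of growth cones, and Ncam1 a cell adhesion molecule of neurons, glia and muscle. Several of these genes therefore mark more than 1 lineage, and in a bulk culture fewer cells of a type and less RNA per cell cannot be told apart.

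The sequences upstream of Fabp7, Bex1 and Nes are shown because these 3 genes had the same 3 highest embryos and the same lowest embryo, described below. They are the 250 bases before the annotated start, 5′ to 3′ on the gene's strand, from RefSeq on GRCm38.p6, whose promoter table matched 3 of the 5 genes. Capitals mark matches on either strand to a set of motifs. The E2F site was searched as TTCCCGC and in a second form as TTGGCGC. The other motifs were the CHR element of cell cycle promoters as TTTGAA, the CCAAT box, the GC box as GGGCGG, and TGGGAA as the core of the site for RBPJ, the Notch effector.
Fabp7, chr10:57784673-57784922, plus strand: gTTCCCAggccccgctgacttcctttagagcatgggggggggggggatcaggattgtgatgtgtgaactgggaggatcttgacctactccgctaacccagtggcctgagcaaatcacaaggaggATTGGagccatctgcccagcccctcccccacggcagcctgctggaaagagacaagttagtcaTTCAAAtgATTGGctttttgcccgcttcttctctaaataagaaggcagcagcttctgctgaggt
Bex1, chrX:136215514-136215763, minus strand: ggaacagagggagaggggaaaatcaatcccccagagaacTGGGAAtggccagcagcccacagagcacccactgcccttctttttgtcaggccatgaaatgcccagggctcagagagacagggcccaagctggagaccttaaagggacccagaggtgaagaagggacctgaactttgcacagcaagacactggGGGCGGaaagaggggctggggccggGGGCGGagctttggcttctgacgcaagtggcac
Nes, chr3:87970843-87971092, plus strand: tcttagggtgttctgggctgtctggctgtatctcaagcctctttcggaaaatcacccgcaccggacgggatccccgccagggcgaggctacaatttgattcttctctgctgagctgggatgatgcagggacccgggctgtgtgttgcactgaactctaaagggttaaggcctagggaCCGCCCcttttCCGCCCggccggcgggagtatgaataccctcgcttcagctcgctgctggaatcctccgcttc

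None of the 3 windows held either E2F form, which were present in 3.8% and 2.0% of the 32851 promoter windows of the same length. The Fabp7 window held 1 CHR match, 2 CCAAT boxes and 1 RBPJ core, none overlapping another, and these letters were found in 16%, 33.8% and 21.6% of all windows. The Bex1 window held 2 GC boxes and 1 RBPJ core, and the Nes window 2 GC boxes, which 32.7% of all windows contained. No motif was shared by the 3 windows. These matches describe letters only and say nothing of binding. Gap43 lies on chromosome 16 and Ncam1 on chromosome 9.

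Every array had a 2% trimmed mean signal of 500.2, with medians of 135 to 146. Over the genes tested, cultures of 1 embryo correlated at 0.988 to 0.994 and those of different embryos at 0.948 to 0.991. All 20 arrays were closest to another array of their own embryo. The E2f4 probe set averaged 166 ± 17.6 in null embryos and 214 ± 6.47 in wild type embryos (SD, n = 5 and 3), with the groups apart. Which part of E2f4 the null allele lacks is not stated in the labels, so this signal is a limited check of them. All 10 fibroblast markers passed the filter on low signal, at unequal levels. Col1a1, a fibrillar collagen, lay between 10292 and 13838 in null embryos and between 12364 and 13378 in wild type embryos, whereas Dcn, the proteoglycan decorin, lay between 91.3 and 318 in null embryos and between 99.3 and 408 in wild type embryos.

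Fabp7 was the member with the largest range between embryos. Its signal (probe set 1450779_at) averaged 512, 595, 198, 146 and 143 in null embryos 1 to 5, against 145, 805 and 65.2 in wild type embryos 1 to 3. Null embryos 1 and 2 and wild type embryo 2 were high, the other embryos were low, and the null range lay inside the wild type range. The highest embryo was 12.3 times the lowest, and both extremes were wild type. Cultures of an embryo lay close together, at 525 and 500 in null embryo 1, 543 and 647 in null embryo 2 and 732 to 868 in wild type embryo 2. Wild type embryo 3 held between 63.4 and 68.3 in its 4 cultures.

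Bex1, which lies on the X chromosome, was highest in the same 3 embryos. Its signal (1448595_a_at) averaged 487, 472, 339, 175 and 143 in null embryos 1 to 5, against 58.4, 504 and 50.6 in wild type embryos 1 to 3. Wild type embryo 2 stood with the highest null embryos, while wild type embryos 1 and 3 lay below all null embryos. Null embryos 4 and 5 were between these levels, and the cultures of null embryo 4 were 219 and 131. Over all 20 cultures the signal ran between 44.5 and 561.

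Because Bex1 is X-linked, Xist, the RNA that silences 1 X chromosome in female cells, was read as well, a choice made after the Bex1 values were seen. Its signal was 2219, 47.1, 30.5, 2299 and 2266 in null embryos 1 to 5, against 3070, 37.9 and 2983 in wild type embryos 1 to 3. The Y-linked gene Eif2s3y, a translation factor subunit, had 557 and 679 in null embryos 2 and 3, against 350 in wild type embryo 2, and at most 5.01 in the other embryos. High Bex1 was thus present in null embryo 1, with Xist, and in null embryo 2 and wild type embryo 2, with Eif2s3y. The 3 embryos with Eif2s3y were among the 4 with the highest Bex1. Fabp7, on chromosome 10, had the same 4 highest embryos, so this order was not particular to the X-linked gene. For Nes, wild type embryo 1 took the place of null embryo 3. Whether Bex1 or Fabp7 follows sex was not tested.

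Nes had the same 3 highest embryos as Fabp7. Its brightest probe set (1449022_at) averaged 730, 731, 298, 334 and 250 in null embryos 1 to 5, against 338, 569 and 155 in wild type embryos 1 to 3. The same 3 embryos were highest and wild type embryo 3 was lowest, as for Fabp7 and Bex1. Cultures of null embryo 1 differed most, at 591 and 869. A second Nes probe set (1418289_at) had 210, 205, 99.3, 91.7 and 94.1 in the null embryos and 111, 179 and 97.1 in the wild type embryos, again with the same 3 highest. The third (1453997_a_at) was at 2.61 to 35.8 in null embryos and 9.0 to 35.9 in wild type embryos, and its 3 highest embryos were also null 1, null 2 and wild type 2. The probe sets share the same arrays and RNA.

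Gap43 moved in another order. Its signal (1423537_at) averaged 265, 146, 284, 269 and 320 in null embryos 1 to 5, against 174, 166 and 266 in wild type embryos 1 to 3. Null embryo 2 and wild type embryos 1 and 2 were low, and the other 5 embryos lay between 265 and 320. The highest embryo was 2.20 times the lowest. Null embryo 2 and wild type embryo 2, which were high in Fabp7, were the embryos lowest in Gap43.

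Ncam1 was the brightest and steadiest of the 5. Its main probe set (1426864_a_at) averaged 1157, 912, 899, 873 and 870 in null embryos 1 to 5, against 1293, 955 and 883 in wild type embryos 1 to 3. Wild type embryo 1 and null embryo 1 stood above the other 6 embryos, which lay between 870 and 955. A second probe set (1426865_a_at) had 904 to 1005 in null embryos and 845 to 1058 in wild type embryos and did not set those embryos apart, whereas 1450437_a_at, at 443 to 715 in null embryos and 491 to 726 in wild type embryos, did. Of the other 3 probe sets, 1425126_at had 76.8 to 113 in null embryos and 89.3 to 135 in wild type embryos, and 1450438_at had 14.5 to 49.3 in null embryos and 32.1 to 53.8 in wild type embryos. The last, 1421966_at, reached at most 9.62 in null embryos and 7.56 in wild type embryos. Signals of different probe sets depend on their probes, so their levels do not rank transcripts.

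**Figure D1:**
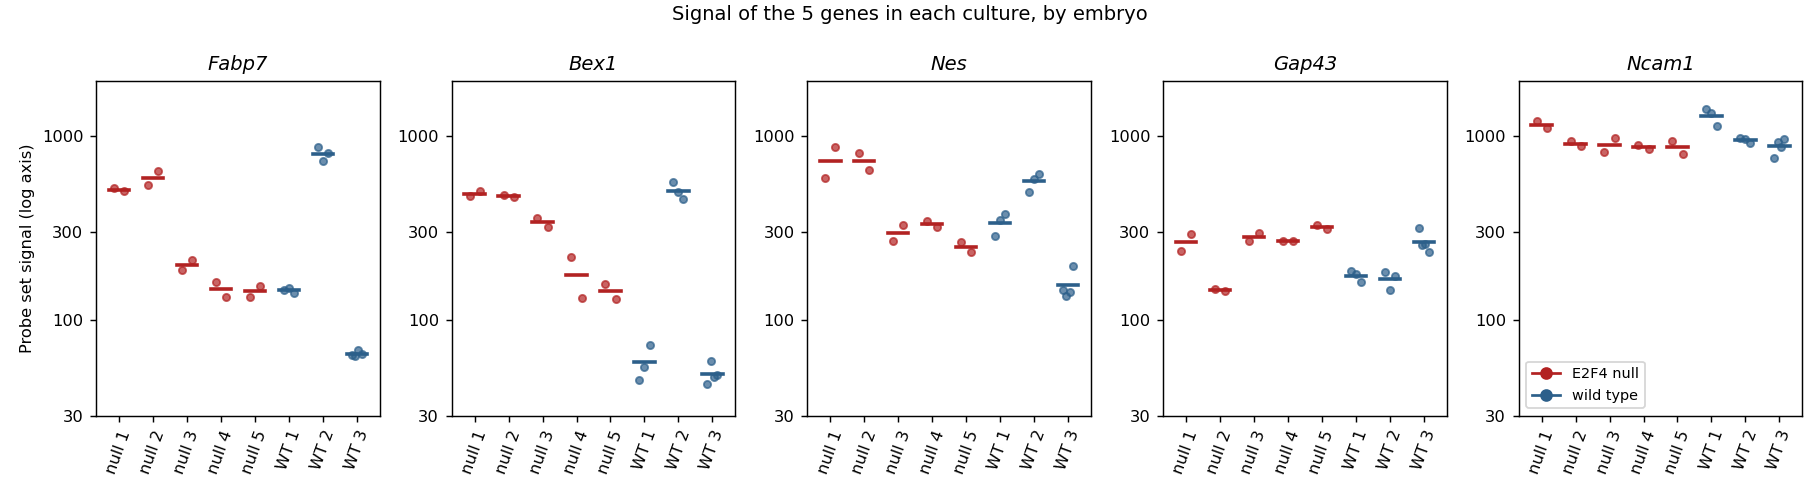
Probe set signal (log axis) of the 5 genes in each of the 20 cultures, by embryo. Points are cultures, lines are embryo means, red is E2F4 null and blue wild type. Fabp7, Bex1 and Nes are highest in null embryos 1 and 2 and in wild type embryo 2, and lowest in wild type embryo 3.

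On the scale used for testing, log2(signal + 16), the SD of the 8 embryo means was 1.17 for Fabp7, 1.22 for Bex1, 0.75 for Nes, 0.40 for Gap43 and 0.21 for Ncam1. Among the 7436 genes that passed the filter on low signal these were ranks 22, 18, 58, 455 and 1969, and the median gene had 0.148. The SD between cultures of an embryo was 0.10 for Fabp7, 0.20 for Bex1, 0.21 for Nes, 0.13 for Gap43 and 0.12 for Ncam1, against a median of 0.118. Embryos therefore spread 11.5 times as much as cultures for Fabp7 and 1.7 times as much for Ncam1. In limma's F test over cultures, 50.1% of genes were called between wild type embryos and 22.9% between null embryos, and all 5 members were called in both, against 19.1% of genes. The members were chosen with this spread in view, so their count supports nothing. P-values from cultures describe these embryos only.

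**Figure D2:**
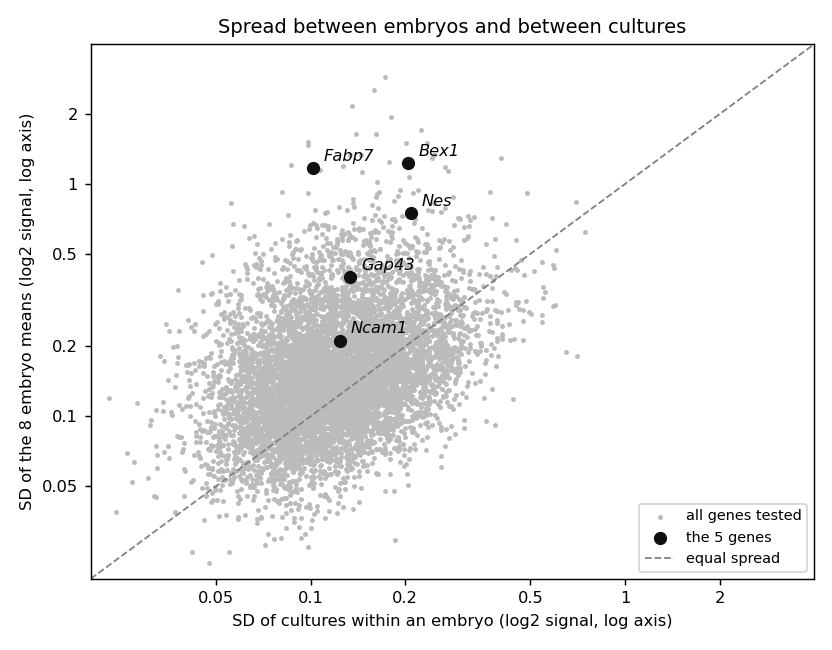
SD of the 8 embryo means against the SD of cultures within an embryo, both on the log2(signal + 16) scale and log axes, for the 7436 genes tested (grey) and the 5 genes (black). The dashed line marks equal spread. Fabp7, at 1.17 against 0.10, and Bex1, at 1.22 against 0.20, lie near the top of the cloud, and Ncam1, at 0.21 against 0.12, lies inside it.

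Between genotypes the embryo means of all 5 genes overlapped. The difference, E2F4 null minus wild type, was 0.35 (log2, SE 0.75) for Fabp7, 1.15 (SE 0.69) for Bex1, 0.42 (SE 0.47) for Nes, 0.31 (SE 0.24) for Gap43 and -0.13 (SE 0.14) for Ncam1. SEs given with differences are limma's moderated SEs, which are drawn towards the spread of other genes. They therefore understate the spread of genes that vary widely between embryos. The SD of embryos within a genotype was 1.25 for Fabp7, 1.16 for Bex1 and 0.77 for Nes. On the signal scale Fabp7 averaged 319 ± 217 in null embryos and 338 ± 406 in wild type embryos (SD, n = 5 and 3), so its sign differs between scales. Bex1 averaged 323 ± 161 in null and 204 ± 260 in wild type embryos, and Nes 469 ± 241 in null and 354 ± 208 in wild type embryos. Gap43 averaged 257 ± 65.8 in null and 202 ± 55.5 in wild type embryos, and Ncam1 942 ± 121 in null and 1044 ± 219 in wild type embryos. Over all genes tested the median difference was -0.004, against 0.35 over the members.

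Of the 5 members, limma on embryo means called 0 at a Benjamini-Hochberg adjusted p under 0.05, and 0 had an unadjusted p under 0.05. Over all genes it called 0.0134%, with 8.73% at the unadjusted threshold, and the embryo groups did not overlap for 6.66% of genes (null above for 2.95%, null below for 3.71%) and for 0 members. Nothing is read from these counts, since the members were chosen with the same contrast known. Single embryos moved the differences. Without wild type embryo 2 they were 1.30 for Fabp7, 2.12 for Bex1 and 0.84 for Nes, and without wild type embryo 3 they were -0.37, 0.63 and -0.05. Without null embryo 2 the Fabp7 value was 0.08 and that of Gap43 0.49, and without null embryo 1 the Fabp7 value was 0.13. Ncam1 lay at 0.03 without wild type embryo 1.

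**Figure D3:**
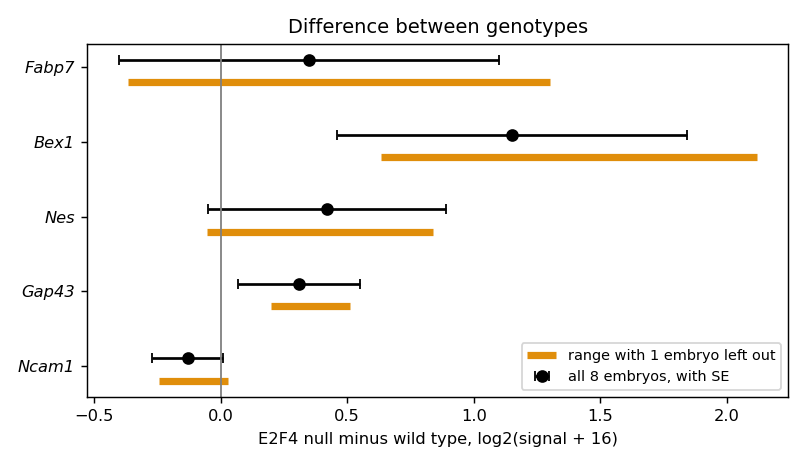
Difference between E2F4 null and wild type on the log2(signal + 16) scale for the 5 genes, with limma's moderated SE from the fit over 8 embryo means (black) and the range of values with 1 embryo left out (orange). The ranges of Fabp7, Nes and Ncam1 cross 0, whereas those of Bex1, from 0.63 to 2.12, and Gap43, from 0.20 to 0.51, do not.

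Genes that define neurons and glia were mostly dim in these cultures. The lists for neurons, neural progenitors, other glia, and Schwann cells and crest held 43 genes besides the members, of which 38 were on the array, and 33 of these lay below the filter, at a mean signal of 83.2. A mean signal under 50 was found for 29 of the 38. The summed signal of the neuron list was 1111 to 1969 in null embryos and 1251 to 2157 in wild type embryos, and that of the Schwann cell and crest list 660 to 912 in null and 784 to 1230 in wild type embryos. In each of these sums 1 gene was the largest part. For neurons it was Stmn2, at 612 to 1413 in null and 789 to 1438 in wild type embryos. For Schwann cells and crest it was Egr2, at 228 to 573 in null and 420 to 963 in wild type embryos. The progenitor list summed to 262 to 308 in null embryos and 204 to 306 in wild type embryos, and the astrocyte and oligodendrocyte list to 104 to 206 in null and 86 to 214 in wild type embryos. Sox10, which defines crest and Schwann cells, averaged 50.4 ± 9.05 in null embryos and 41.2 ± 16.4 in wild type embryos (SD, n = 5 and 3). Sox2 of neural stem cells had 55.7 ± 11.5 in null and 57.9 ± 34.7 in wild type embryos. The astrocyte filament Gfap had 41.5 ± 12.8 in null and 37.6 ± 20.4 in wild type embryos, and the synaptic protein Snap25 9.60 ± 7.73 in null and 5.82 ± 3.72 in wild type embryos. MAS5 signals have no true 0, and detection calls were not used here, so these levels cannot be split into background and low expression.

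None of the 5 other neural genes that passed the filter was highest in the same 3 embryos as Fabp7, against 9.90% of all genes tested. Of the 33 below the filter 4 were: Sox2, Gfap, Aldh1l1, a folate enzyme of astrocytes, and Aqp4, the astrocyte water channel. The share among all genes below the filter was not computed, so nothing is read from this count. Aldh1l1 had 53.9, 72.4, 37.0, 41.8 and 29.5 in null embryos 1 to 5, against 23.3, 85.8 and 32.6 in wild type embryos 1 to 3. The astrocyte and oligodendrocyte list, all of it below the filter, summed to 165, 206, 136, 110 and 104 in the null embryos. In the wild type embryos it summed to 86, 214 and 94, so its sum was highest in those 3 embryos too. That sum includes Gfap, Aldh1l1 and Aqp4, and no other gene of the list had those 3 embryos highest. S100b, for 1, was lowest in null embryo 1, at 9.40. The part of such cells, or of background signal, in the level of Fabp7 was not tested. Stmn2, a neuronal tubulin regulator, averaged 934, 612, 1157, 1413 and 1048 in null embryos 1 to 5, against 1168, 789 and 1438 in wild type embryos 1 to 3. It was lowest in null embryos 1 and 2 and wild type embryo 2, the embryos where Fabp7 was highest. Tubb3, the neuronal beta tubulin, averaged 326 ± 42.2 in null embryos and 360 ± 124 in wild type embryos, and Slc1a3, the glutamate transporter of radial glia, 86.3 ± 15.4 in null and 78.2 ± 26.5 in wild type embryos. Tfap2a, a transcription factor of neural crest and surface ectoderm, had 112 ± 53.4 in null and 103 ± 21.7 in wild type embryos, and Egr2, of Schwann cells and also a serum response gene, 402 ± 159 in null and 642 ± 285 in wild type embryos. None of the 5 was called between genotypes (limma adjusted p = 0.659 to 0.999, and 0 at an unadjusted p under 0.05, against 0.0134% and 8.73% of all genes), and their median difference was -0.09. Between wild type embryos 5 of 5 were called by the F test and between null embryos 3 of 5, against 50.1% and 22.9% of all genes.

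**Figure D4:**
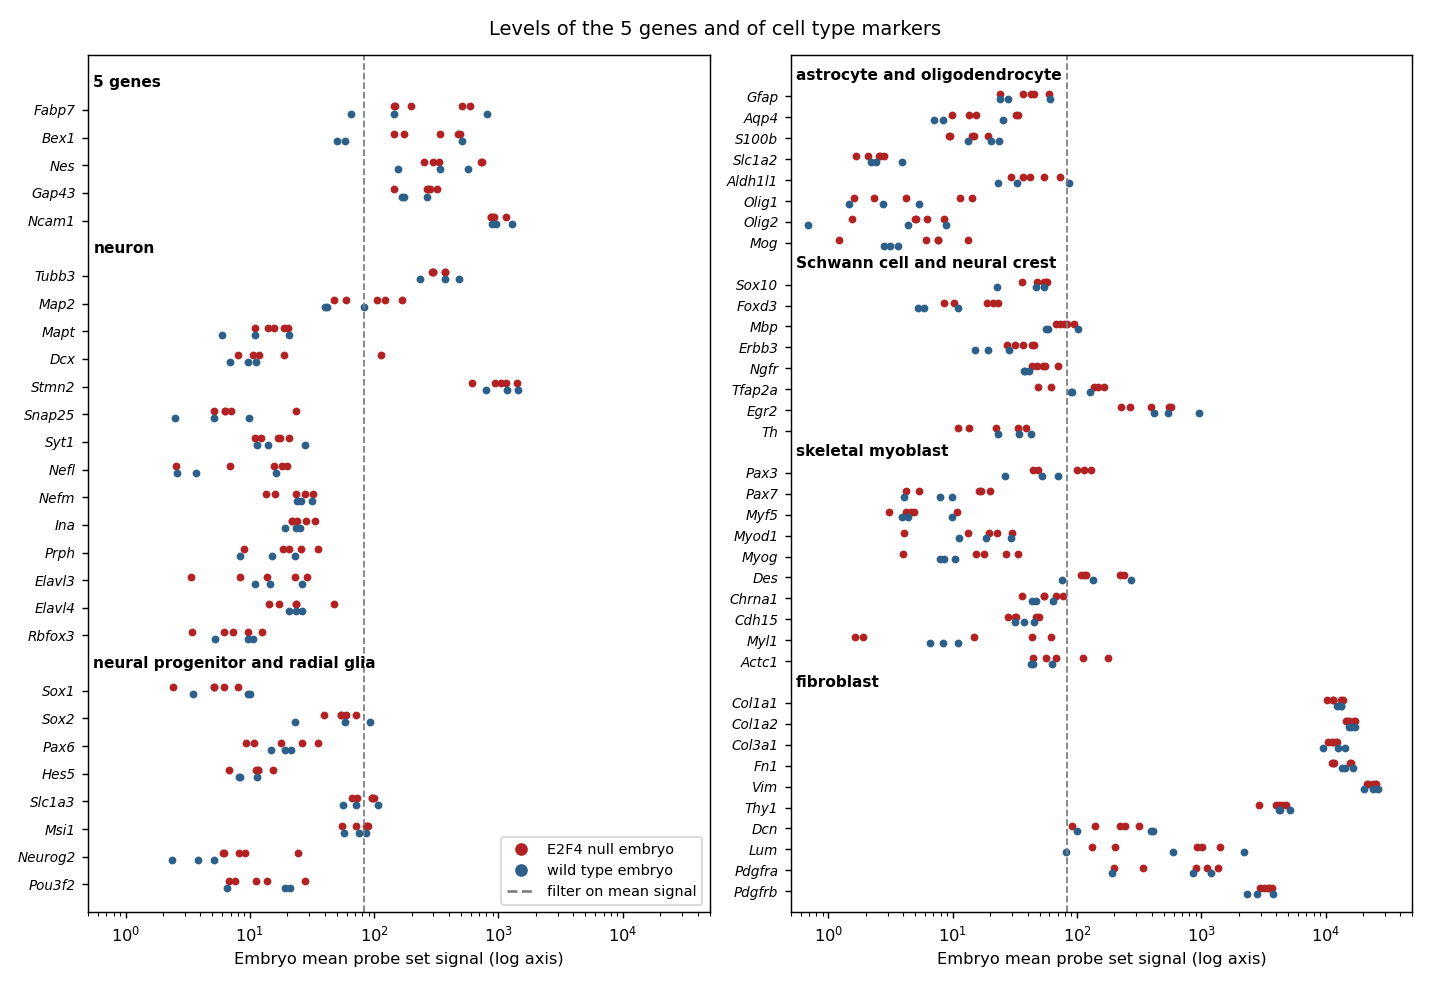
Embryo mean signal (log axis) of the 5 genes and of marker genes on the array, with E2F4 null embryos in red and wild type embryos in blue. The dashed line is the filter on mean signal, at 83.2. Most neural and glial markers lie left of it, as do all embryos for Sox10 and Gfap, while the fibroblast marker Col1a1 lies between 10292 and 13838.

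Of the relatives of the 5 genes, none that passed the filter was called between genotypes. Those below the filter, such as Bex2 and Bex4, were not in that test. Among fatty acid binding proteins Fabp5, the skin form, was far brighter, at 8062 ± 1097 in null embryos and 6362 ± 392 in wild type embryos (SD, n = 5 and 3), a difference of 0.33 (log2, SE 0.11; limma adjusted p = 0.419). Fabp3, the heart form, had 604 and 414 in null embryos 1 and 2 and 268 to 290 in null embryos 3 to 5, against 573 in wild type embryo 2 and 276 and 291 in the other wild type embryos, and so was highest in the same 3 embryos as Fabp7. Bex3, a relative of Bex1, had 2529 ± 266 in null embryos and 2531 ± 745 in wild type embryos, also with those embryos highest. Among growth cone proteins Crmp1 differed by 0.53 (SE 0.20, limma adjusted p = 0.481), with 261 ± 50.9 in null and 179 ± 53.9 in wild type embryos. Cdh2, the neural cadherin, differed by -0.07 and St8sia2, which adds polysialic acid to NCAM, by -0.11 (limma adjusted p = 0.855 and 0.889). In the list of Notch pathway and NFI genes, Rbpj differed by 0.32 and the Notch ligand Jag1 by -0.84 (limma adjusted p = 0.395 and 0.459). None of the 18 lists held a gene called between genotypes by limma, against 0.0134% of all genes, and of the 70 list genes tested 5 (7.14%) had an unadjusted p under 0.05, against 8.73% of all genes.

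The remaining genes named by the smallest p in each list were likewise not called (limma adjusted p = 0.593 to 0.938). Differences (log2, null minus wild type) were 0.51 for Krt19 and 0.38 for Krt18, keratins of simple epithelia, and 0.35 for Laptm5 and 0.34 for Cd68, lysosomal proteins of macrophages. They were 0.20 for Pdgfrb and -0.18 for Fn1 of fibroblasts, -0.11 for Cspg4 of pericytes, and -0.27 for Mitf, the melanocyte regulator. The mitotic kinases Aurka and Cdk1 differed by 0.11 and 0.14, the nuclear lamins Lmnb1 and Lmna by 0.12 and 0.07, and Stmn1, a tubulin regulator, by 0.12. Fabp4, the adipocyte fatty acid binding protein, differed by 0.17, and Tceal1 and Tceal9, of the family of Bex1, by -0.18 and -0.10.

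The genes with the profiles nearest to each member were found by Pearson correlation of log2(signal + 16) over the 20 arrays. These values describe arrays that share embryos and carry no p. Nearest to Fabp7 were Ankrd1, a stretch-responsive nuclear protein (r = 0.98), Fez2 (0.975) and Dpysl3, a cytoskeletal protein of growing axons (0.967). Nearest to Nes were Pawr, a pro-apoptotic protein (0.961), Krt18, a keratin of simple epithelia (0.952), and Col4a1, a basement membrane collagen (0.946). Nearest to Bex1 were Egln3, an oxygen-sensing hydroxylase (0.941), the glutamate transporter Slc1a6 (0.92) and Rab3ip (0.919). Ankrd1 had 2332, 2834, 1129, 1221 and 960 in null embryos 1 to 5, against 986, 2837 and 713 in wild type embryos 1 to 3.

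The nearest genes of Gap43 were the zinc transporter Slc30a4 (r = 0.897), the RNA polymerase III subunit Polr3g (0.892) and Rusf1 (0.887). Those of Ncam1 were Igfbp5, which binds insulin-like growth factors (0.906), Ttc39c (0.894) and Lman1, a cargo receptor of the secretory pathway (0.854). Igfbp5 had 1189, 653, 859, 824 and 654 in null embryos 1 to 5, against 1902, 884 and 679 in wild type embryos 1 to 3, and so was highest in wild type embryo 1 and null embryo 1, like Ncam1.

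**Figure D5:**
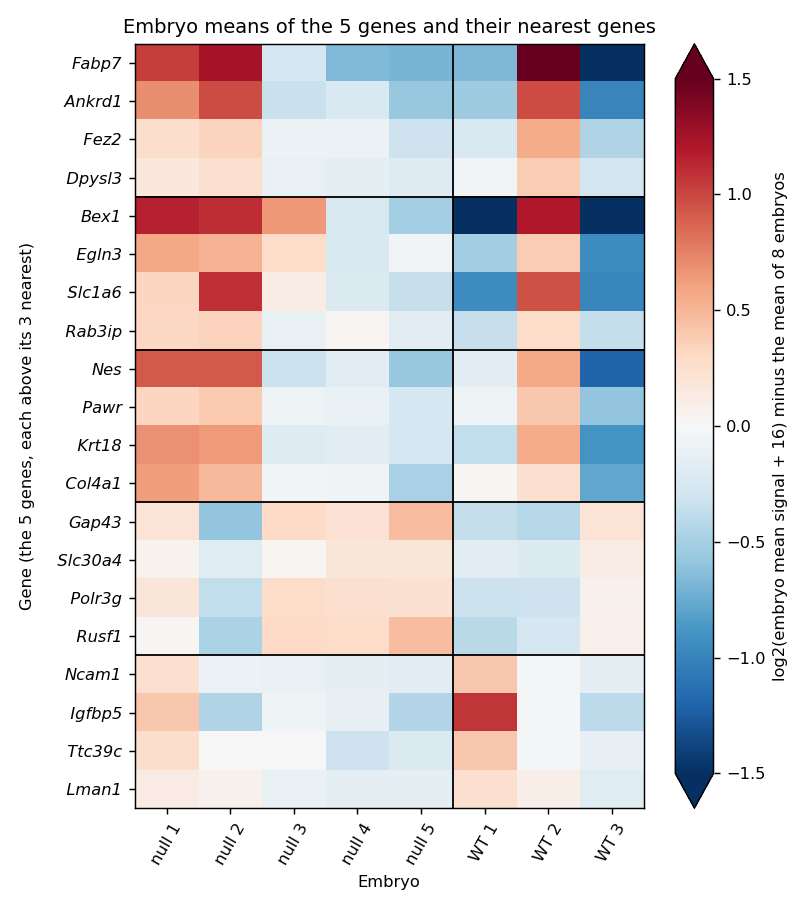
Embryo means of the 5 genes, each above its 3 nearest genes, as log2(embryo mean signal + 16) minus the mean of the 8 embryos. E2F4 null embryos are left of the line and wild type embryos right of it. The blocks of Fabp7, Bex1 and Nes are red in null embryos 1 and 2 and wild type embryo 2, while those of Gap43 and Ncam1 have other orders. Bex1, Egln3 and Slc1a6 are also red, more weakly, in null embryo 3.

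The 3 highest embryos of Fabp7, Bex1 and Nes were also the highest for many other genes. Of the 7436 tested, 736 (9.90%) had their 3 highest embryo means in null embryos 1 and 2 and wild type embryo 2, and 887 (11.93%) had their 3 lowest there. All 4 tested genes of the pericyte and smooth muscle list were among the first. Of its genes below the filter, Myh11 also had its 3 highest embryo means there, whereas Rgs5 did not. Rgs5 had 39.7, 167, 80.3, 66.5 and 97.6 in null embryos 1 to 5, against 30.6, 85.6 and 46.9 in wild type embryos 1 to 3. Cnn1, the contractile protein calponin, had 2367, 3733, 1066, 984 and 909 in null embryos 1 to 5, against 1484, 4469 and 1019 in wild type embryos 1 to 3. The summed signal of the 6 genes of that list on the array ran from 27232 to 41040 in null embryos and from 28088 to 44063 in wild type embryos. That sum was mostly Acta2 and Tagln, with mean signals of 19198 and 11435 over the 20 arrays, so it says little of Rgs5.

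The summed signal of the 10 skeletal myoblast genes was 695, 569, 455, 374 and 480 in null embryos 1 to 5, against 330, 545 and 327 in wild type embryos 1 to 3, and so was also highest in those embryos. Des, the muscle filament desmin and the single gene of that list to pass the filter, was highest there as well. No other gene of the list had its 3 highest embryo means there. Below the filter, the cardiac actin Actc1 had 179 and 112 in null embryos 1 and 2. It had at most 67.9 in the other null embryos and at most 62.7 in wild type embryos. Pax3 of the same list, also below the filter, was instead highest in null embryos 3 to 5. It had 44.5, 48.6, 114, 100 and 130 in null embryos 1 to 5, against 26.3, 52.4 and 70.2 in wild type embryos 1 to 3. Myod1, which defines myoblasts, averaged 18.0 ± 9.89 in null embryos and 19.9 ± 9.18 in wild type embryos (SD, n = 5 and 3).

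Markers of fibroblasts were split. Dcn, Lum and Pdgfra were lowest in the embryos where Fabp7 was highest, while Col1a1, Col1a2, Fn1 and Vim were highest there. The 2 sides were unequal in size. The highest embryo was 4.47 times the lowest for Dcn, 27.1 times for Lum and 7.16 times for Pdgfra. For Col1a1 it was 1.345 times the lowest, for Col1a2 1.185, for Fn1 1.48 and for Vim 1.28. Col1a2 was called by limma's F test in neither genotype (adjusted p = 0.155 between wild type and 0.300 between null embryos). Lum, a matrix proteoglycan, had 202, 133, 917, 1007 and 1408 in null embryos 1 to 5, against 597, 81.8 and 2220 in wild type embryos 1 to 3. Of 11 proliferation genes 9 were lowest in those 3 embryos, with Mki67 at 1666, 1724, 2314, 2290 and 2311 in null embryos 1 to 5, against 2155, 1315 and 2602 in wild type embryos 1 to 3. None of the 6 tested macrophage genes had its 3 highest or 3 lowest embryo means there, and Csf1r, the receptor that defines macrophages, averaged 408 ± 151 in null embryos and 364 ± 106 in wild type embryos (SD, n = 5 and 3). The 7 endothelial genes, all below the filter, summed to 167, 207, 131, 141 and 132 in null embryos 1 to 5, against 108, 213 and 123 in wild type embryos 1 to 3, again highest in the same 3 embryos. Of these, Emcn had 48.9 and 58.8 in null embryos 1 and 2 and at most 23.2 in the other null embryos. It had 33.0 in wild type embryo 2 and at most 12.8 in the other wild type embryos. No other endothelial gene had its 3 highest embryo means in those embryos. Tek, for 1, was highest in null embryo 4, at 23.1, and lowest in null embryo 1, at 14.2. Pecam1, which defines endothelium, averaged 7.83 ± 5.12 in null embryos and 6.91 ± 3.00 in wild type embryos. The part of other cell types, of contractile state or of growth in the levels of Fabp7, Bex1 and Nes was not tested.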

How the data were processed

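The deposited values are linear signal intensities, 1 per probe set and array for 20 arrays. The submitters' processing notes name MAS5 as the software that made them. The MAS5 settings were not given in the sources used here, and no detection calls were used. Of 22690 probe sets, 64 were controls, and 20380 others carried 1 gene symbol in the platform annotation, updated through gene identifiers with RefSeq of GRCm38.p6. No column was left unused.

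Values were converted to log2(signal + 16), which understates changes of low genes, and the cultures of an embryo were averaged. Each gene was represented by its probe set with the highest mean signal, and genes under the 40th percentile were left out, which kept 7436 of 12393. The genotype comparison was fitted on embryo means by limma 3.58.1 under R 4.3.3 (lmFit, eBayes with trend, two-sided, Benjamini-Hochberg over all genes). Embryos within a genotype were compared with limma's F test over cultures. Precision is limited by the number of embryos. The scripts were tested on simulated data. Nearest genes were the 3 with the highest correlation. From each list the 2 genes with the smallest p and defining markers are named, and 1 defining marker is not reported here. Xist, Eif2s3y, Dcx, Snap25, Map2, Nefl, Ina, Elavl3, Bex2 and Bex4 were chosen after their values were seen. So were Aldh1l1, Aqp4, S100b, Actc1, Pax3, Emcn, Tek, Rgs5 and Myh11. The same holds for genes named for their order of embryos, such as Fabp3, Bex3, Lum and Mki67. The members and the 18 gene lists were chosen with earlier results of these data known.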

Additional observations from a re-analysis of the deposited data

Results flagged for a closer look

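These values were in view when the genes were chosen, so they describe the embryos and no outlier test is drawn from them. For Gap43, null embryo 2 lay apart from the other null embryos, at 146 against 265 to 320, and the gap took up 0.752 of the range of the 5 null embryo means on the log2 scale. For Ncam1 (1426864_a_at), null embryo 1 lay apart, at 1157 against 870 to 912, and the gap took up 0.827 of that range. Both cultures of the embryo lay on the same side of all other null cultures, at 148 and 144 for Gap43 and 1204 and 1110 for Ncam1. The Ncam1 probe sets differed in this. In 1426865_a_at, which was nearly as bright, null embryo 1 was the lowest null embryo, at 904 against 911 to 1005. In 1450437_a_at it was the highest, at 715.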

How the results depend on the processing

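The genotype differences moved by less than 1 SD of embryos under each alternative that gave a value. With 1 embryo left out they ran from -0.37 to 1.30 for Fabp7, 0.63 to 2.12 for Bex1, -0.05 to 0.84 for Nes, 0.20 to 0.51 for Gap43 and -0.24 to 0.03 for Ncam1. No member and no neural or glial marker was called in 18 alternatives, and a 60th percentile filter removed Fabp7, Bex1 and Gap43. The single gene called between genotypes over the whole array was lost (0 genes) with the embryo number as replicate block, with cultures 1 and 2 only and with every probe set tested, and the count ran from 0 to 11 with 1 embryo left out. Dropping wild type embryo 2 gave 11, dropping null embryo 2 gave 2, and dropping null embryo 1, 3, 4 or 5 or wild type embryo 1 gave 0. Same-numbered embryos are not stated to be paired, and their deviations correlated at 0.09, 0.64 and 0.42. With that replicate block, which takes null embryos 4 and 5 out of the comparison, the differences were 0.90 for Fabp7, 1.70 for Bex1, 0.77 for Nes, 0.16 for Gap43 and -0.06 for Ncam1. Null embryo 1 correlated best with wild type embryo 2, at 0.39, so not every embryo was closest to its own number. The other Nes probe sets differed by 0.08 and -0.12, and those of Ncam1 by -0.21 to -0.03. Genes called between wild type embryos numbered 3722, and 2186 with cultures 1 and 2 only, with 1121 to 3391 without 1 embryo, the lowest without wild type embryo 2. With every probe set tested, 5716 probe sets were called, a count not of genes, since 1 gene can have several. With the culture number as replicate block, 3160 genes were called. Between null embryos 1704 were called, 1591 with that block, and 990 to 1729 without 1 embryo, the lowest without null embryo 2. Several of these settings also change the number of arrays or of features tested, and the cause of the changes in count was not tested. Without detection calls, signals under about 50 cannot be read as presence or absence.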

Other observations

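Dcx, which encodes doublecortin, a microtubule protein of migrating neurons, stood out in 1 embryo although it lay below the filter on low signal. Its brightest probe set had 98.4 and 129 in the cultures of null embryo 3 and at most 22.7 in those of the other null embryos, against at most 32.6 in the wild type cultures. A second Dcx probe set (1418139_at) had 57.0 and 52.1 in null embryo 3, at most 10.2 in the other null cultures and at most 18.5 in the wild type cultures. The other Dcx probe sets, at 13.9 to 19.7 and 14.7 to 16.5 in null embryo 3, did not stand apart. Snap25, of synapses, had 20.4 and 26.4 in null embryo 3, at most 10.3 in the other null cultures and at most 12.1 in the wild type cultures. Other genes of the neuron list were mixed. The brightest Map2 probe set had 112 and 132 in null embryo 3, below 157 and 178 in null embryo 5. Nefl was lowest in null embryo 3, at 2.54, and Stmn2 was highest in wild type embryo 3. Ina and Elavl3 were highest in null embryo 3, at 33.2 and 28.7, close to the next embryo, at 28.3 and 26.2. Null embryo 3 was not among the highest for Fabp7 or Nes. These genes were picked after their values were seen and were not tested.

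Bex2, a close relative of Bex1 that lay below the filter, had 67.3, 37.5, 87.0, 89.5 and 82.8 in null embryos 1 to 5, against 17.0, 37.4 and 34.3 in wild type embryos 1 to 3. Wild type embryo 2, where Bex1 was highest, had the highest Bex2 of the wild type embryos. It was level with null embryo 2, the lowest null embryo, so Bex1 and Bex2 differed in their order of embryos. Bex4, another relative below the filter, was highest in wild type embryo 2, like Bex1. It had 63.5, 51.7, 65.7, 52.0 and 46.9 in null embryos 1 to 5, against 15.1, 67.8 and 24.2 in wild type embryos 1 to 3.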
